A study of Arabidopsis thaliana with 22 samples.

Results

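The 2 inducible *Arabidopsis* lines of this series differed most, and at both times, in a set of 81 probe sets of 22746 on the Affymetrix ATH1 array, once control probe sets were set aside. A probe set was taken as a member when the mean of the GL3-GR Mock arrays lay more than 4 above, or more than 4 below, the mean of the GL1-GR Mock arrays on the log2 scale, at 4 h and again at 24 h. Of the 81 members, 71 were lower in GL3-GR and 10 were higher. The members were thus chosen by their values on the Mock arrays, so the Mock differences below are a description and carry no test. The DEX arrays were not used in the choice.

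RNA from green tissues of seedlings was hybridised to 22 arrays. The transgene was pGL1::GL1-GR, in the *gl1* mutant, for the GL1-GR line and pGL3::GL3-GR, in the double mutant *gl3 egl3*, for the GL3-GR line, so Mock and DEX plants of a line shared the same mutant background. Seedlings were moved to medium with dexamethasone (DEX) or with ethanol, its solvent (Mock), and were collected after 4 h or 24 h. Each group had 3 arrays, except the Mock and the DEX group of GL3-GR at 24 h, with 2 arrays each. Each fusion was driven by the promoter of its own gene, and the tissue of several seedlings was pooled for each RNA extraction. The study describes the materials as independent, while the labels give a sample number alone, so p-values measure the spread between these samples. The accession from which each line descends was not given in the sources used here. The line, its mutant background and the separate scale of its arrays cannot be told apart in this design.

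GL1, a MYB factor, and GL3, a bHLH factor, act in a shared complex that starts the formation of trichomes, the hairs of the leaf surface. In the fusions, the hormone-binding part of the glucocorticoid receptor keeps the factor inactive until DEX is given. Genes with very different values in 2 lines of 1 species may differ in transcript amount, or in the match between transcript and probe when the lines differ in sequence, and a hybridisation value does not separate these. Arabidopsis accessions are known to carry different sets of expressed genes for defence and for glucosinolates, the sulfur-containing defence compounds of this plant family.

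The scale of the arrays bears on every comparison of the lines. The deposited values are log2 GCRMA values, whose lowest value on an array is called the floor here, and a value within 0.5 of it is called near the floor. Over all probe sets, the Mock difference (GL3-GR minus GL1-GR) had a median of -1.39 at 4 h and of -0.0089 at 24 h. At 4 h, 5.27% of all probe sets lay below -4 and 0.0879% above 4, whereas at 24 h the shares were 0.699% and 0.572%. The predominance of lower members thus moved with the shift of all probe sets at 4 h. When all arrays were quantile normalized, the same rule gave 59 probe sets, 30 lower and 29 higher in GL3-GR, of which 40 were members (30 lower and all 10 higher). With the median of each array subtracted, it gave 20 lower and 46 higher. GL1 itself was near the floor on 20 of the 22 arrays, and GL3 had no probe set with a gene name here. RCA (rubisco activase, of photosynthetic tissue) had group means between 11.04 and 13.62, which shows green tissue without excluding root. The labels name green tissues alone, and so do the study's array methods for both lines. Only its general section on RNA extraction also names whole seedlings as an option.

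**Figure D1:**
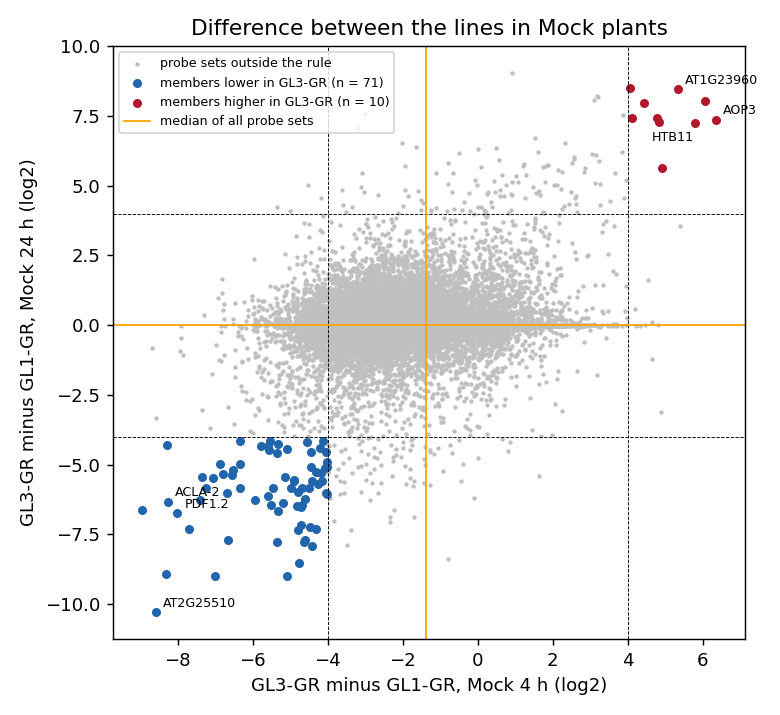
Difference between the lines (GL3-GR minus GL1-GR, log2) in Mock plants at 4 h (x axis) and at 24 h (y axis), 1 point per probe set, with the 71 lower members in blue, the 10 higher members in red, the rule at 4 and -4 as dashed lines and the medians of all probe sets as orange lines. The cloud of all probe sets is centred at -1.39 on the x axis and near 0 on the y axis.

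The lower members had Mock differences from -8.96 to -4.01 at 4 h (median -5.10) and from -10.30 to -4.15 at 24 h (median -5.83). The higher members had Mock differences from 4.07 to 6.36 at 4 h (median 4.87) and from 5.65 to 8.50 at 24 h (median 7.43). The difference was larger at 24 h in 46 of the 71 lower and in all 10 higher members. Nearest to the rule on its inner side were AT1G14120 (-4.01 at 4 h and -4.92 at 24 h) and GSTU26 (-4.02 and -6.07) among the lower members, and AT5G16980 (4.07 and 8.50) and AT3G47250 (4.12 and 7.43) among the higher. Just outside were the probe set 245567_at (-3.99 and -4.28) and AT4G11410 (-4.89 and -3.99) on the lower side, and CSLC04 (3.96 and 5.20) and the probe set 245700_at (3.89 and 4.55) on the higher side.

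A single gene was named for 57 members, of which 47 were lower and 10 higher. Another 3 members had several genes and 21 had none, and these are given by probe set. The 57 genes lay on all 5 chromosomes, with 14 on chromosome 1, 8 on chromosome 2, 8 on chromosome 3, 10 on chromosome 4 and 17 on chromosome 5. A role could be given to 39 of them. These were 9 members among other enzymes, 7 of gene regulation and translation, 6 defence proteins, 4 dioxygenases that use 2-oxoglutarate, 3 receptors and kinases, 3 peroxidases and 7 proteins of other known kinds. All 6 defence proteins and all 3 peroxidases were among the lower members. Since 71 of all 81 members were lower, these counts are close to what the whole set shows. After quantile normalization, 3 of the 6 defence proteins, 1 of the 3 peroxidases and 2 of the 4 dioxygenases still met the rule. So did all 3 receptors and kinases, 4 of the 9 other enzymes, 4 of the 7 members of gene regulation and translation and 4 of the 7 other known proteins.

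The position of the members relative to the floor was distinct in each line. The rule itself placed the Mock means of the line with the higher values well above the floor. All 71 lower members were above the floor on every GL1-GR array. On the 6 GL3-GR arrays of 4 h, 21 of them were near the floor on every array, 20 on none and 30 on some. On the 4 GL3-GR arrays of 24 h, 41 were near the floor on every array, 24 on none and 6 on some. Over both times, 17 of the 71 were near the floor on all 10 GL3-GR arrays and 14 on none. Of the 10 higher members, 8 were near the floor on all 12 GL1-GR arrays, and all 10 were above it on every GL3-GR array. The exceptions were AT1G73490 at 4 h, with GL1-GR group means of 2.80 (Mock) and 2.97 (DEX), and HTB11 at 24 h, at 3.89 to 3.90 on all 6 GL1-GR arrays. Where a line was near the floor, a difference is a lower bound on this scale, because values there have no order.

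**Figure D2:**
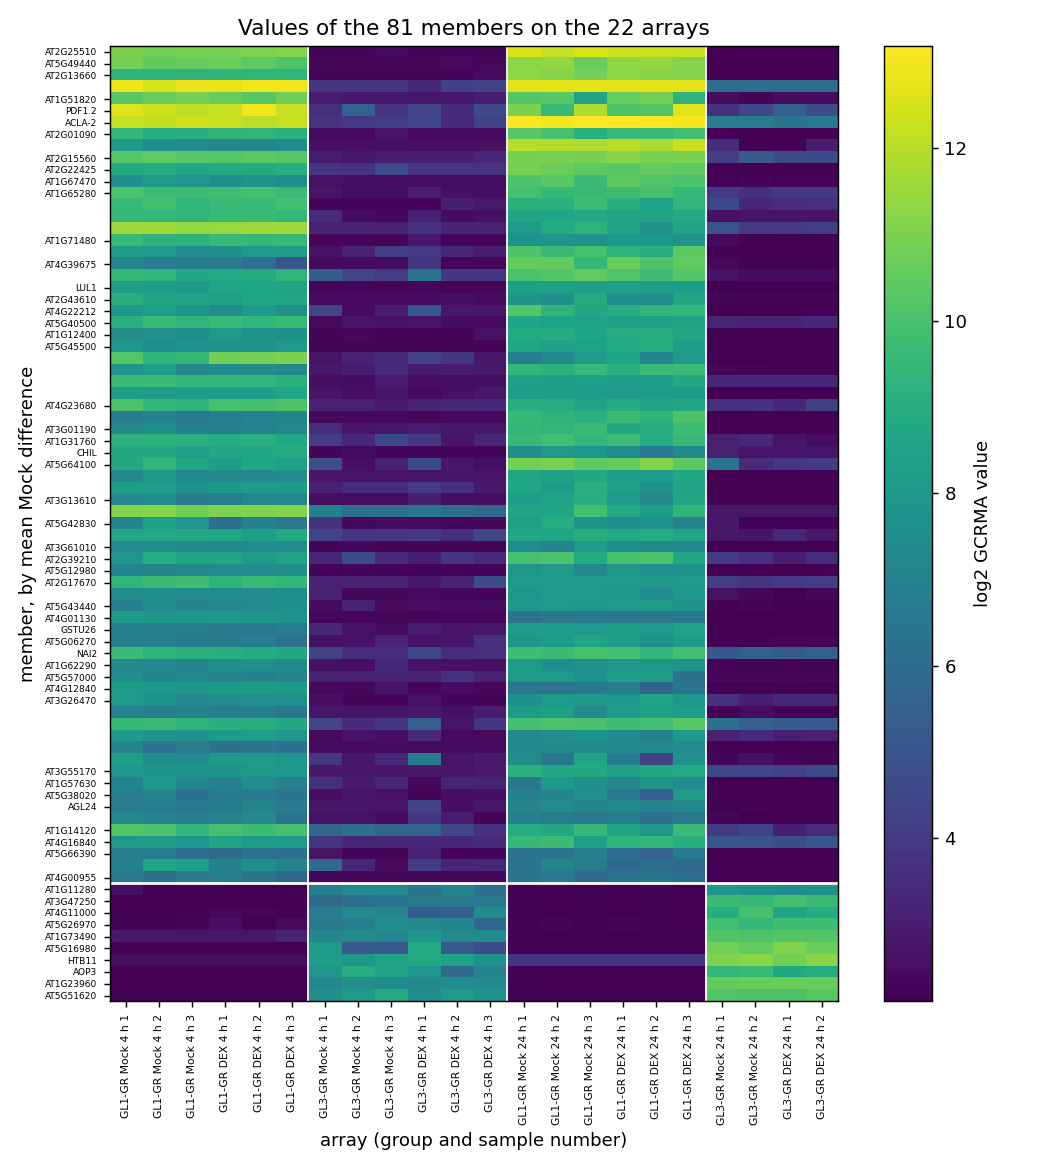
Log2 GCRMA values (colour) of the 81 members (rows, from the most negative to the most positive mean Mock difference) on the 22 arrays (columns, by group and sample number), with white lines between the lines of plants, the times and the directions. The 71 lower members are darker in GL3-GR than in GL1-GR at each time, and the 10 higher members are dark in both GL1-GR blocks. Of the lower members, 14 lie above the floor on all 10 GL3-GR arrays, with a Mock mean of 6.79 for ACLA-2 at 24 h.

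Ranks within an array do not depend on its scale. The median rank of the lower members was the 71.0th percentile among GL1-GR Mock arrays at 4 h and the 76.3rd at 24 h. For the higher members, the median rank among GL3-GR Mock arrays was the 85.5th percentile at 4 h and the 85.6th at 24 h. No rank is given for the opposite line, where many members were near the floor. These ranks come from the Mock arrays that chose the members and describe the choice.

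The DEX arrays asked whether the same probe sets lay far apart in arrays that the rule had not used. All 81 members differed in their original direction at both times (limma on the 11 DEX arrays, Benjamini-Hochberg adjustment over 16349 probe sets), with a largest adjusted p of 0.00535 at 4 h and of 0.0311 at 24 h, both for the probe set 256929_at. For comparison, 81.9% of all tested probe sets were called lower and 10.4% higher in GL3-GR at 4 h, so a call at 4 h says little about a lower member. At 24 h the shares were 12.7% and 17.4%. A difference of more than 4 in size was kept by 69 members at 4 h (60 lower and 9 higher), where 8.61% of all tested probe sets were that much lower and 0.122% that much higher. It was kept by 79 members at 24 h (69 lower and 10 higher), against 0.936% and 0.734%. Among the lower members the median difference was -5.11 at 4 h and -5.79 at 24 h, and among the higher members 4.53 and 7.60. The medians of all tested probe sets were -2.23 and 0.0078. The DEX arrays of the lines did not overlap for any of the 81 members, which held for 81.2% (lower) and 11% (higher) of all tested probe sets at 4 h and for 35.8% and 37.9% at 24 h. After quantile normalization, 79 members were called at 4 h and 80 at 24 h, as were 66.7% and 21.7% of all tested probe sets. Beyond 4 in their original direction were then 50 and 62 members, against 3.50% and 0.905% of all tested probe sets in either direction. With array medians subtracted, 79 and 81 members were called, beside 69.5% and 30.8%, and 29 members stayed beyond 4 at 4 h and 80 at 24 h, against 2.63% and 1.71%. DEX and Mock arrays of a line and time have nearly the same floor and median, so they appear to share 1 scale, and this comparison is separate in its samples and not in its normalization.

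**Figure D3:**
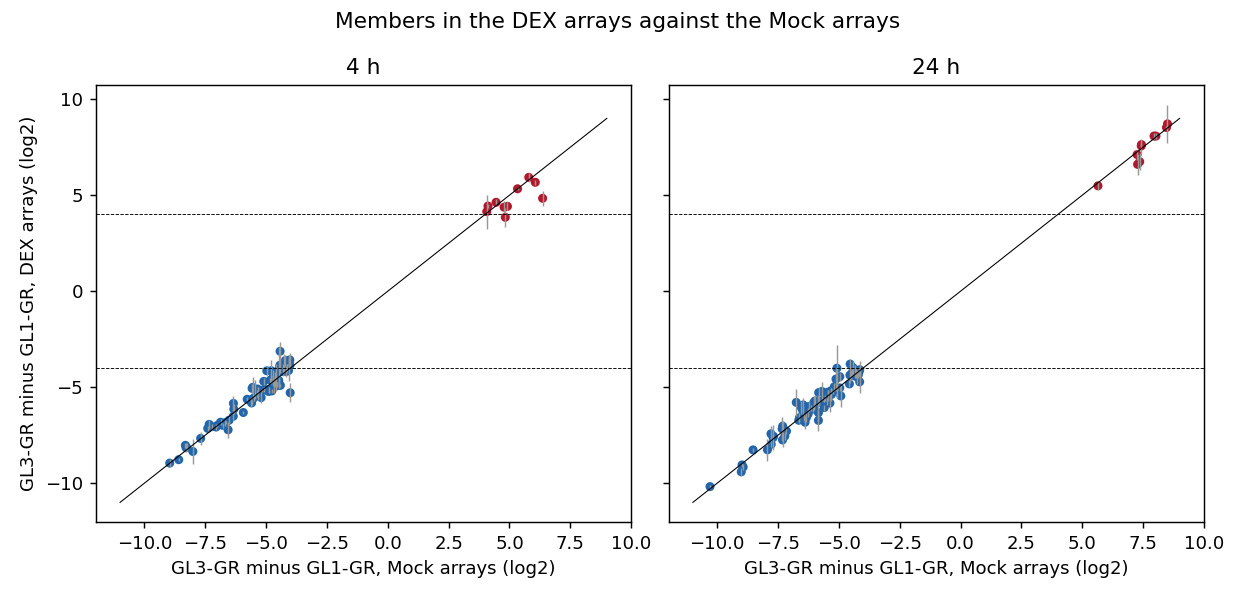
Difference between the lines (GL3-GR minus GL1-GR, log2) in the DEX arrays (y axis, with SE bars from limma) against that in the Mock arrays (x axis) for the 81 members at 4 h and 24 h, with lower members in blue, higher members in red, the line of equal values and dashed lines at 4 and -4. The members beyond 4 in the DEX arrays number 69 at 4 h and 79 at 24 h.

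The most distant member was AT2G25510, a gene without a given role. Its Mock values in GL1-GR were 10.998, 10.84 and 10.94 at 4 h and 12.59, 12.19 and 12.55 at 24 h, and those in GL3-GR were 2.28, 2.28 and 2.44 at 4 h and 2.15 and 2.15 at 24 h. On the deposited scale, AT2G25510 was at least 439-fold lower in GL3-GR in the DEX arrays of 4 h (log2 difference -8.78, SE 0.09, limma adjusted p = 1.1e-10). At 24 h it was at least 1160-fold lower (-10.18, SE 0.10, limma adjusted p = 3.8e-11). The median difference of all tested probe sets was -2.23 at 4 h and 0.0078 at 24 h. The 4 h fold was not adjusted for this shift. AT5G49440 and AT2G13660, also without a role, had DEX-array differences of -8.03 and -6.99 at 4 h and of -9.16 and -9.05 at 24 h, and were near the floor on every GL3-GR array. The probe set 255257_at, with no gene name, was not near the floor. Its Mock means were 12.77 and 12.70 in GL1-GR and 3.81 and 6.08 in GL3-GR, at 4 h and 24 h.

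Among enzymes of basic metabolism, ACLA-2 encodes a subunit of ATP-citrate lyase, which makes acetyl-CoA in the cytosol. The ACLA-2 Mock values were 12.20, 12.16 and 12.36 (4 h) and 13.13, 13.05 and 13.18 (24 h) in GL1-GR, against 3.84, 3.93 and 4.16 and then 6.78 and 6.79 in GL3-GR. ACLA-2 was above the floor on every array, and in the DEX arrays it was 280-fold lower in GL3-GR at 4 h and 95.7-fold lower at 24 h (limma adjusted p = 1.4e-09 and 6.6e-08). The other subunit genes with a named probe set did not follow it. ACLA-1 differed by -2.67 at 4 h, ACLB-1 by -2.69 and ACLA-3 by -0.32, beside the median of -2.23 for all probe sets, and at 24 h their differences were -0.27, 0.12 and 0.22, with limma adjusted p of 0.12, 0.59 and 0.55. AT2G01090, the hinge protein of the mitochondrial cytochrome bc1 complex, was near the floor on all 4 GL3-GR arrays of 24 h (2.11 to 2.12), and its GL1-GR values lay between 9.15 and 10.32 at that time.

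The defence proteins were led by PDF1.2, a plant defensin that responds to jasmonate and ethylene. PDF1.2 varied more between samples than most members. Its GL1-GR Mock values were 12.63, 12.38 and 12.06 at 4 h and 10.98, 9.57 and 11.84 at 24 h, and its GL3-GR Mock values were 3.64, 5.60 and 3.81 at 4 h and 3.63 and 4.46 at 24 h. The lines did not overlap on any array. In the DEX arrays the difference was -8.35 (SE 0.64) at 4 h and -5.79 (SE 0.72) at 24 h, with limma adjusted p of 9.3e-07 and 0.00023. Its near copy PDF1.2b, whose probe set may also bind transcripts of related genes, differed by -5.10 at 4 h and by -1.15 at 24 h (adjusted p = 0.51), and PDF1.4, another member of that defensin group, by -0.77 and 0.42 (adjusted p = 0.24 and 0.77).

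The other 5 defence members were AT2G43610 of the chitinase family, AT4G22212, a defensin-like protein, AT4G23680 of the family of major latex proteins, AT3G26470, which has an RPW8 domain, and AT1G57630, which has the TIR domain of many resistance proteins. In GL1-GR their Mock means lay between 7.45 (AT1G57630, 24 h) and 9.61 (AT4G23680, 4 h). In GL3-GR they lay between 2.15 (AT4G22212 and AT1G57630, 24 h) and 3.66 (AT4G23680, 24 h). AT4G22212 was uneven within the GL3-GR arrays of 4 h, at 4.44, 2.42 and 3.04 (Mock) and 5.19, 2.82 and 2.77 (DEX), so sample 1 was the highest in both groups. All 5 were called lower in GL3-GR in the DEX arrays of both times, with differences from -6.72 (AT4G23680) to -4.14 (AT4G22212) at 4 h and from -7.17 (AT4G22212) to -4.83 (AT3G26470) at 24 h. So were all 71 lower members, beside 81.9% of all tested probe sets at 4 h and 12.7% at 24 h.

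**Figure D4:**
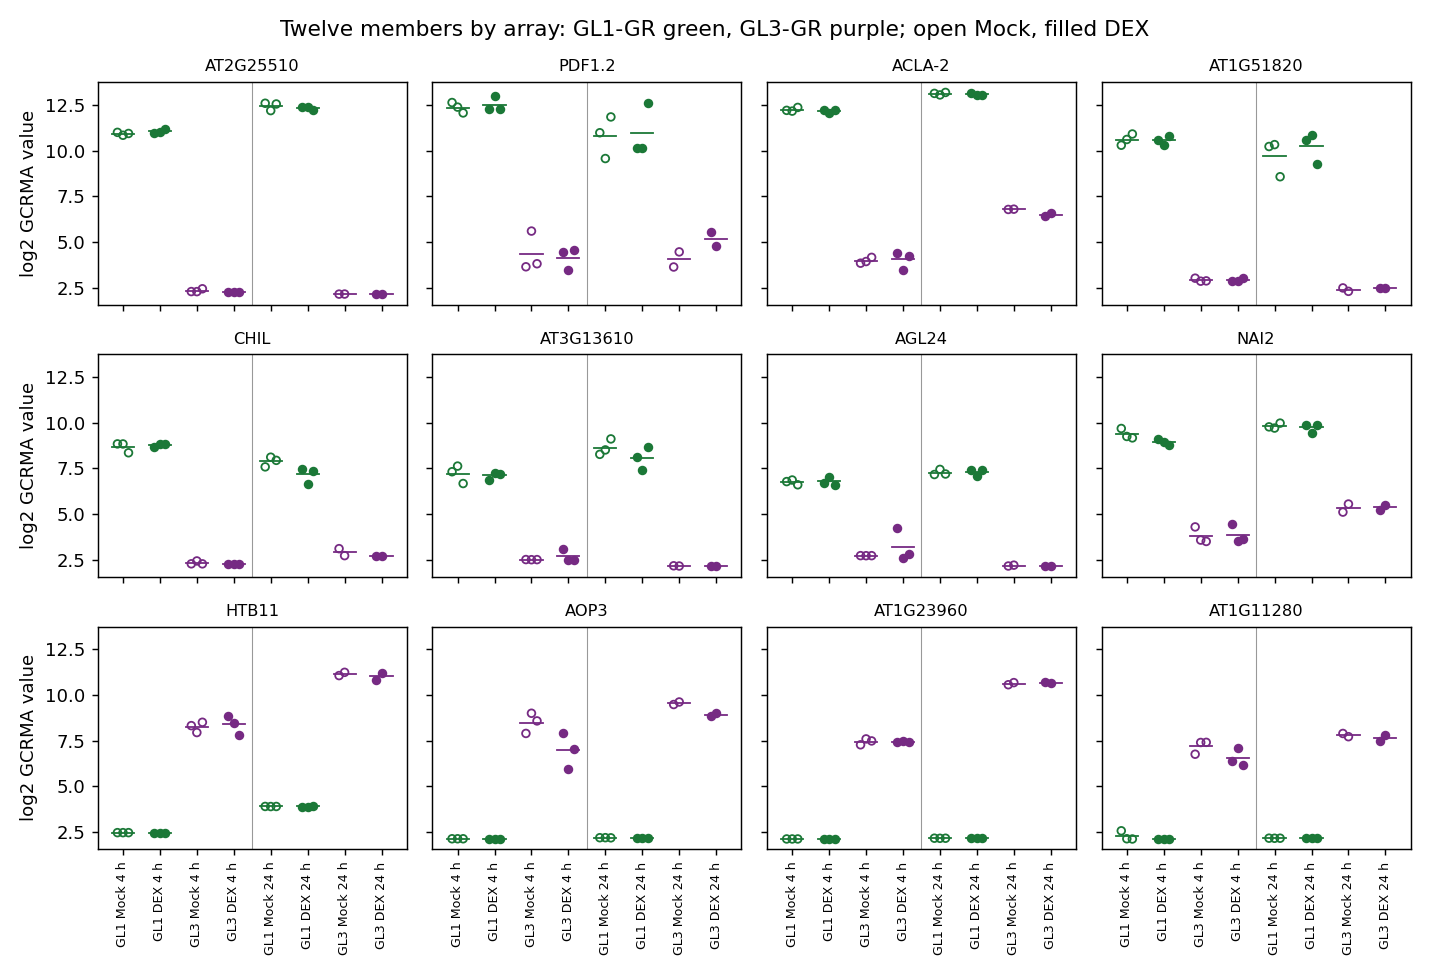
Log2 GCRMA value (y axis) on each array for 12 members, by line, treatment and time (x axis), with GL1-GR in green, GL3-GR in purple, Mock as open and DEX as filled points, and group means as bars. ACLA-2 and NAI2 lie above the floor in GL3-GR, whereas AT2G25510 lies at it, and HTB11, AOP3, AT1G23960 and AT1G11280 show the opposite order of the lines.

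Receptors and kinases had 3 members. AT1G51820, a receptor kinase with leucine-rich repeats, had GL1-GR Mock values of 10.29, 10.61 and 10.91 at 4 h and of 10.22, 10.33 and 8.57 at 24 h. In GL3-GR it lay between 2.84 and 3.03 at 4 h and between 2.30 and 2.49 at 24 h. AT1G67470, a protein kinase, differed between the lines by -5.10 at 4 h and by -7.97 at 24 h in the DEX arrays. AT1G11280, a receptor kinase of the S-locus lectin type, went the other way, with GL3-GR Mock values of 6.75, 7.39 and 7.40 at 4 h and 7.89 and 7.71 at 24 h, against GL1-GR means of 2.27 and 2.16. Its DEX-array differences were 4.42 and 5.49.

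The 4 dioxygenases also split. AOP3 makes hydroxyalkyl glucosinolates. AOP3 was near the floor on all 12 GL1-GR arrays (2.13 at 4 h and 2.17 to 2.19 at 24 h). Its GL3-GR Mock values were 7.89, 8.99 and 8.58 at 4 h and 9.47 and 9.61 at 24 h. In the DEX arrays AOP3 was at least 28.6-fold higher in GL3-GR at 4 h (limma adjusted p = 1.3e-06) and at least 107-fold higher at 24 h (adjusted p = 2.9e-06). Its neighbour AOP1 differed by -3.80 at 4 h and at 24 h both lines were near the floor, with group means from 2.15 to 2.18. AOP3 was the single member among the 6 genes with a probe set, of 30 genes listed for glucosinolate synthesis and its control. At 24 h it was the only one of these 6 called higher, none was called lower, and their median difference was 0.044 beside 0.0078 for all tested probe sets. At 4 h, 5 of the 6 were called lower, beside 81.9% of all tested probe sets. Their median difference was then -3.39 beside -2.23. GS-OH, another of the 6, differed by -6.23 at 4 h and by -1.15 at 24 h (limma adjusted p = 0.092).

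AT3G13610 makes the precursor of scopoletin and related coumarins, which roots release when iron is short. Its Mock values in GL1-GR were 7.32, 7.63 and 6.67 at 4 h and 8.27, 8.51 and 9.11 at 24 h, whereas all GL3-GR arrays lay at 3.10 or below. AT5G43440 and AT1G14120 belong to the same enzyme family. AT1G14120 was above the floor on every array of both lines, with GL3-GR Mock values of 5.72, 6.27 and 5.69 at 4 h and 3.97 and 4.34 at 24 h. Its GL1-GR Mock values were 10.23, 10.08 and 9.41 and then 8.95, 8.81 and 9.47. After quantile normalization, or with array medians subtracted, AT1G14120 did not meet the rule.

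The peroxidases were AT3G01190, AT5G64100 and AT5G66390, all secreted enzymes of class III, which act on cell wall phenolics and hydrogen peroxide. AT5G64100 reached 10.43 to 11.15 in GL1-GR at 24 h. In GL3-GR it read 4.72, 2.55 and 3.23 in Mock and 4.71, 2.81 and 2.58 in DEX plants of 4 h, and 6.36 and 3.44 in Mock and 3.87 and 4.08 in DEX plants of 24 h, so the GL3-GR samples were far apart while still below every GL1-GR sample. AT5G66390 had the smallest differences of the 3 in the DEX arrays, -3.61 at 4 h and -3.98 at 24 h. Several of these genes are known from roots, and of the 8 listed root markers only PYK10, a root and seedling beta-glucosidase, had a named probe set. The PYK10 Mock means were 12.37 and 13.23 in GL1-GR and 9.45 and 11.98 in GL3-GR, and it differed by -2.77 at 4 h and by -1.23 at 24 h (limma adjusted p = 0.0034) in the DEX arrays. RCA differed by -1.96 at 4 h and by -0.037 at 24 h. The part of tissue composition in the values of these members was not tested.

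NAI2 is needed to form ER bodies, the compartments that hold PYK10. Its GL1-GR Mock values were 9.69, 9.25 and 9.17 at 4 h and 9.77, 9.71 and 9.98 at 24 h, and its GL3-GR Mock values were 4.30, 3.58 and 3.50 and then 5.11 and 5.55. NAI2 stayed above the floor on every array. On the deposited scale, it was 33.4-fold lower in GL3-GR in the DEX arrays of 4 h and 20.7-fold lower in those of 24 h. All tested probe sets had a median difference of -2.23 at 4 h and of 0.0078 at 24 h. After quantile normalization, or with array medians subtracted, NAI2 did not meet the rule. NAI1, the bHLH factor that drives ER body genes, is not a member, and it differed by -1.39 at 4 h and by -2.76 at 24 h (limma adjusted p = 5.1e-07). The GL3-GR means of NAI1 at 24 h were near the floor, at 2.26 (Mock) and 2.19 (DEX). NAI2, NAI1 and PYK10 were thus all called lower in GL3-GR in the DEX arrays of 24 h, as were 12.7% of all tested probe sets.

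In gene regulation and translation, HTB11 encodes a histone H2B. HTB11 had values of 2.46 on all 6 GL1-GR arrays of 4 h and of 8.32, 7.94 and 8.50 (Mock) and 8.87, 8.49 and 7.81 (DEX) in GL3-GR. At 24 h GL3-GR gave 11.06 and 11.23 in Mock and 10.81 and 11.20 in DEX plants. It was at least 60.9-fold higher in GL3-GR in the DEX arrays of 4 h and 139-fold higher in those of 24 h. By the definition used here, its GL1-GR values of 24 h were not near the floor. They hardly varied, with a standard deviation (SD) of 0.003 (Mock) and 0.006 (DEX), so the 139-fold ratio may also be a lower bound. The other H2B genes with a named probe set, HTB1, HTB2 and HTB4, differed by -2.59, -2.41 and -2.15 at 4 h, close to the median of all probe sets, and by 0.087, 0.51 and 0.012 at 24 h (limma adjusted p = 0.97, 0.36 and 1.0). Histone H2B genes are nearly alike in sequence, and a probe set may bind transcripts of more than 1 of them. In GL1-GR Mock plants of 4 h, where HTB11 read 2.46, HTB1, HTB2 and HTB4 had means of 8.94, 10.77 and 11.37. Such binding was not tested.

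AGL24, a MADS-box factor that promotes flowering, had GL1-GR Mock values of 6.78, 6.87 and 6.60 at 4 h and of 7.17, 7.45 and 7.19 at 24 h. In GL3-GR it was at 2.73, 2.72 and 2.73 in Mock plants of 4 h, but 1 DEX array of that time (sample 1) read 4.25 while the others read 2.58 and 2.82. After quantile normalization, or with array medians subtracted, AGL24 did not meet the rule. Other lower members of this class were AT1G12400 (a subunit of the repair and transcription factor TFIIH), AT1G31760 (SWIB domain), AT5G12980 (related to a regulator of cell differentiation in yeast) and AT3G55170 (a ribosomal protein of the large subunit). AT1G73490, with an RNA-recognition motif, was higher in GL3-GR by 4.63 at 4 h and by 8.08 at 24 h in the DEX arrays.

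The remaining higher members were AT1G23960, AT5G51620, AT3G47250 and AT5G26970, without a given role, AT5G16980, a dehydrogenase of the zinc-binding family, and AT4G11000, with ankyrin repeats. AT1G23960 had little spread, at 7.27, 7.59 and 7.48 in GL3-GR Mock plants of 4 h and at 10.56 and 10.67 at 24 h, with GL1-GR values of 2.11 to 2.16. AT5G51620 stood at 7.60, 8.10 and 8.90 in GL3-GR Mock plants of 4 h. AT5G16980 was uneven at 4 h, where sample 1 of GL3-GR was at 8.14 (Mock) and 8.89 (DEX) and the other samples at 4.65 to 5.26. At 24 h its 4 GL3-GR values lay between 10.53 and 11.09.

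In the GL3-GR DEX arrays of 4 h, the place of sample 1 among the lower members was close to its place among all tested probe sets. It was the highest of the 3 DEX arrays in 33 of the 71 lower members (46.5%), beside 52.1% of all tested probe sets, and exceeded both other DEX arrays by more than 0.5 in 17 (23.9%), beside 24.9%. In Mock plants it was the highest of the 3 arrays in 38 lower members (53.5%), beside 38.6%, and by more than 0.5 in 12 (16.9%), beside 13.4%. Without DEX sample 1, all 81 members were called between the lines at 4 h, as were 93.8% of all tested probe sets, and 71 members were beyond 4, where 10.8% of all tested probe sets were in either direction.

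CHIL, a chalcone isomerase-like protein of flavonoid synthesis, and LUL1, a ubiquitin ligase, were among the lower members with relatives on the array. CHIL had Mock means of 8.68 and 7.88 in GL1-GR and 2.33 and 2.92 in GL3-GR. DFR, a later enzyme of the flavonoid pathway, differed by -5.91 at 4 h and by -0.032 at 24 h, when both lines were near the floor. LUL1 stood at 8.26 to 8.46 on all GL1-GR arrays of 24 h and near the floor on all 10 GL3-GR arrays. LUL2 differed by -1.92 at 4 h and by -1.41 at 24 h (limma adjusted p = 0.0037), and LUL4 by -2.96 at 4 h, while at 24 h its group means lay between 2.17 and 2.42, near the floor in both lines.

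The nearest measured genes on each side of the 57 named members gave 114 neighbours, none of which was itself a member. Their Mock differences had a median of -1.42 at 4 h and -0.017 at 24 h, beside -1.39 and -0.0089 for all probe sets. At 24 h, 14 of the neighbours (12.3%) were beyond 2 in size, where 4.91% of all probe sets were, and 3 were beyond 4. AT5G45510, next to the member AT5G45500, had Mock differences of -2.81 at 4 h and -5.66 at 24 h. AT5G40510, next to AT5G40500, had -3.12 and -5.98. AT1G57650, near AT1G57630, went the other way, with 2.22 and 4.87. Beside the kinase AT1G51820, AT1G51830 had -2.02 and -3.69. Neighbours were not tested as a group.

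DEX against Mock was the comparison for which the lines were made. None of the 81 members passed the threshold in any line or time (limma on the arrays of that line and time), and 0.00612% of all tested probe sets did in GL1-GR at 4 h and at 24 h (1 probe set each) and 0% in GL3-GR. The smallest adjusted p among members in GL1-GR was 0.56 at 4 h and 1.0 at 24 h, and in GL3-GR 0.96 and 0.72. At an unadjusted p under 0.05, limma counted 7 members (8.64%) at 4 h and 1 (1.23%) at 24 h in GL1-GR, and 2 (2.47%) and 3 (3.70%) in GL3-GR. The same count over all tested probe sets gave 7.29%, 2.21%, 3.41% and 5.95%. The Mock and DEX values did not overlap in 11 members (13.6%) at 4 h and 5 (6.17%) at 24 h in GL1-GR, where 12.6% and 5.84% of all tested probe sets did not overlap. In GL3-GR it was 5 (6.17%) and 20 (24.7%), beside 7.96% and 31.7%. In the methods' t-test, no member reached an unadjusted p under 0.01, and 1.07%, 0.214%, 0.459% and 0.679% of all tested probe sets did, in the same order, so a count of 0 among 81 is close to the background.

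**Figure D5:**
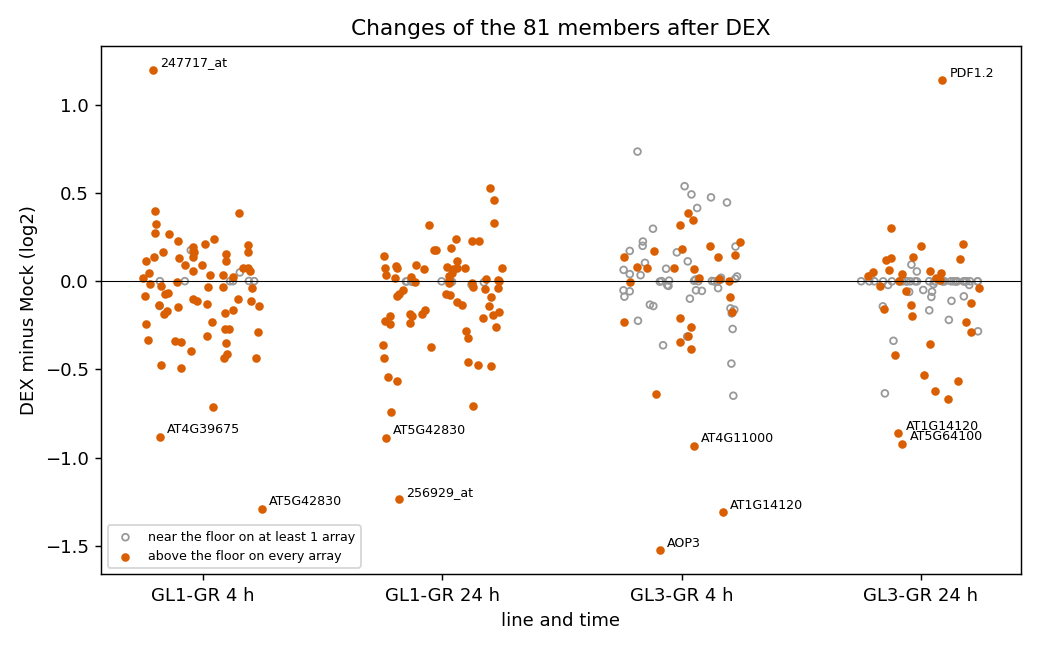
Change after DEX (DEX minus Mock, log2, y axis) of the 81 members in each line and time (x axis), with members above the floor on every array of that comparison in orange and the others as open grey points. The changes reach from -1.52 (AOP3, GL3-GR, 4 h) to 1.197 (247717_at, GL1-GR, 4 h), and the points are spread sideways only to separate them.

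A change can be read only where a member is above the floor. In GL1-GR, 72 members were above it on every array at 4 h and 72 at 24 h, and in GL3-GR 30 at 4 h and 34 at 24 h. Some of them hardly varied even so, such as the probe set 253073_at in GL3-GR at 24 h (SD 0.002 in Mock and 0.007 in DEX plants). The counts of members that can be read may thus be too high. The median change of the members above the floor was -0.031 at 4 h and -0.041 at 24 h in GL1-GR, and 0.017 and -0.014 in GL3-GR. In the same order, 2, 1, 2 and 1 of them differed by more than 1 on the log2 scale in either direction. In GL1-GR at 4 h these were the probe set 247717_at and AT5G42830. The probe set 247717_at had Mock values of 10.28, 9.30 and 9.48 and DEX values of 10.77, 10.88 and 10.99, which did not overlap (difference 1.197, SE 0.28, limma adjusted p = 0.56). At 24 h its groups overlapped. AT5G42830, of the acyltransferase family that includes hydroxycinnamoyl transferases, had Mock values of 7.12, 8.40 and 7.89 and DEX values of 6.09, 6.96 and 6.48 at 4 h (-1.29, SE 0.40, adjusted p = 0.64), and 8.45, 8.95 and 7.77 against 7.65, 7.79 and 7.07 at 24 h (-0.89, SE 0.38, adjusted p = 1.0). The groups were separate at 4 h and overlapped at 24 h.

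The smaller shifts in GL1-GR that the rule for named genes brought up were -0.48 (SE 0.12) for the probe set 247333_at and 0.32 (SE 0.09) for AT5G12980 at 4 h. At 24 h they were -0.74 (SE 0.26) for the probe set 247435_at and -0.70 (SE 0.28) for CHIL. The CHIL values at 24 h were 7.58, 8.11 and 7.94 (Mock) and 7.49, 6.66 and 7.37 (DEX), groups that lay side by side without overlap. The change beyond 1 in GL1-GR at 24 h belonged to the probe set 256929_at (-1.23), whose Mock values were 7.54, 6.46 and 8.58 and whose DEX values were 6.72, 4.42 and 7.75.

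In GL3-GR, AOP3 had the most negative change of all members. Its DEX values at 4 h were 7.91, 5.93 and 7.05, and 1 of them lay above the lowest Mock value (-1.52, SE 0.57, limma adjusted p = 0.96). At 24 h they were 8.85 and 8.99, below both Mock values (-0.62, SE 0.09, limma adjusted p = 0.72). When the spread was estimated from all 22 arrays, AOP3 passed at 4 h (limma adjusted p = 0.042), the only member to do so (1.23%), as did 0.893% of all tested probe sets. That fit also uses the 12 GL1-GR arrays, on which AOP3 is near the floor and hardly varies. AT1G14120 was lower after DEX at both times, at 5.58, 4.50 and 3.68 at 4 h (-1.31, SE 0.51, adjusted p = 0.96) and at 3.08 and 3.51 at 24 h (-0.86, SE 0.25, adjusted p = 0.83), and its Mock and DEX values did not overlap. In GL1-GR the AT1G14120 changes were -0.03 and -0.32. PDF1.2 had the one positive change beyond 1 in GL3-GR, with 5.57 and 4.79 after DEX at 24 h (1.14, SE 0.50, adjusted p = 0.85), and -0.21 at 4 h.

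AT1G11280 (-0.64, SE 0.32, at 4 h) and AT1G73490 (0.13, SE 0.04, at 24 h) were the other GL3-GR members with the smallest p above the floor. For most higher members the Mock and DEX values were interleaved. AT1G23960 read 7.43, 7.48 and 7.44 after DEX at 4 h, inside its Mock range. AT4G11000 read 5.32, 5.52 and 7.56 after DEX and 6.75, 7.31 and 7.13 in Mock plants. Of the 12 trichome genes listed, 11 had a named probe set, and none of these 11 was a member. Since 81 of all 22746 probe sets were members, this count says little. Of the 11, 6 passed the filter. In the DEX arrays of 24 h, CPC was called lower in GL3-GR (-3.85, limma adjusted p = 8.9e-07). Its GL3-GR means at 24 h were near the floor, at 2.42 (Mock) and 2.48 (DEX), so the size of this difference is a lower bound on this scale. MYBL2 was called higher (1.15, limma adjusted p = 0.0089). At 4 h, 4 were called lower and 1 higher. Of all tested probe sets, 12.7% were called lower and 17.4% higher at 24 h, and 81.9% and 10.4% at 4 h.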

How the data were processed

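Values of 22 ATH1 arrays were taken as deposited. Per the labels, biotin label was added during amplification of total RNA (Ovation kit, NuGEN). The authors' deposited numbers are log2 values from GCRMA, 1 per probe set, computed with affylmGUI in R. No version of GCRMA is in the submitters' processing notes. The lowest value of an array differed between the 4 sets (each line at each time), which has the form of separate normalizations. The sources do not state how many runs were made, so centring between sets is unknown. Array medians lay between 3.62 and 6.06, and 30.6% to 41.3% of probe sets of an array were near the floor. The number of arrays limits the precision.

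The 64 control probe sets were left out. GEO's platform annotation (possibly outdated) and for some probe sets the study's list of trichome genes (names alone) gave 1 gene for 13566 probe sets, several for 503 and none for 8677. Symbols came from the RefSeq table of TAIR10.1. Only part of each gene list could therefore be measured. Roles are textbook background, assigned once the members were known.

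Probe sets above the array's own 40th percentile on at least 2 arrays were tested (16349). All 81 members passed, as the rule made likely. R 4.3.3 and limma 3.58.1 (lmFit, eBayes, two-sided) were used with Benjamini-Hochberg adjustment and a threshold of 0.05. Lines were compared on the 11 DEX arrays with 1 mean per group. DEX and Mock were compared on the arrays of 1 line and time, since members at the floor in 1 line make a pooled spread too small. Near the floor values hardly vary. The fit between lines pools 1 spread per probe set over all DEX groups and both times. Groups near the floor make this spread, and with it the SE and p-values, too small. The procedure was tested on simulated data. Alternatives were quantile normalization, subtracted array medians, all 22 arrays, the 2 groups alone, no filter, array weights, a block for sample numbers, left-out arrays and the methods' t-test at an unadjusted p under 0.01.

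Genes were named by a rule: up to 10 lower and 10 higher members with the largest mean Mock difference, the 3 smallest p above the floor per DEX comparison, members of a family or list, and those nearest the threshold. Relatives, neighbours and the other members given by value (AGL24, NAI2, CHIL, LUL1 and the like) were chosen after their values were seen. The members and lists were chosen with earlier results of these data known.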

Additional observations from a re-analysis of the deposited data

How the results depend on the processing

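The number of members followed the rule and the scale. A difference of 3 gave 195 (165 lower, 30 higher in GL3-GR) and one of 5 gave 30 (26 and 4). As alternatives chosen after seeing the data, 4 h alone gave 1218 (1198 and 20), 24 h alone 289 (159 and 130), and subtracting the median difference of all probe sets 59 (29 and 30, 39 shared with the 81). Quantile normalization gave 59 (40 shared), subtracted array medians 66 (30 shared) and group medians 81 (79 shared). Leaving out 1 Mock array gave 76 to 86 members, and 69 of the 81 stayed in every such set. Members called between the lines in the DEX arrays numbered 79 to 81 at 4 h and 80 to 81 at 24 h over the alternatives run, where 66.7% to 93.8% and 20.4% to 52.4% of all tested probe sets were called. Members called for DEX against Mock numbered 0 in each alternative but 1: with all 22 arrays in the fit, 1 member (AOP3, GL3-GR, 4 h) passed, beside 0.893% of all tested probe sets. Over its 14 alternatives, the adjusted p of AOP3 at 4 h ranged from 0.042 to 1.0, and its change from -2.53 to -1.01. Of 1278 alternatives of single members, 1277 kept direction and side of the p-value threshold, which does not regard the size of a difference. Most were of members chosen for large differences between the lines, so this count was likely to be high. Members beyond 4 in the DEX arrays of 4 h fell from 69 to 50 after quantile normalization and to 29 with array medians subtracted. The shares of all tested probe sets were then 3.50% and 2.63%. Deviations of same-numbered samples had correlations of 0.02 to 0.35 (GL1-GR) and 0.07 to 0.28 (GL3-GR, 4 h), all positive. At 24 h in GL3-GR the correlation was -0.14, from only 2 arrays per group. These values do not settle whether the numbers pair the samples. With the sample number as a replicate block, 81 members were called between the lines at each time and 0 for DEX in each line and time. The crossed pairing at 24 h in GL3-GR also called 0. The floor limits what can be measured, with 41 of the 71 lower members near it on every GL3-GR array of 24 h.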
